A study of Mus musculus with 4 samples.

Results

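Potassium channel subunits were examined as a gene family across the brain cells of a mouse stroke study. The members were all gene rows of the deposited tables whose symbol starts with Kcn, which gave 95 of the 46983 rows. A further 4 rows, antisense or overlapping transcripts with os or as endings, were left out. By symbol stem the 95 members were 40 voltage-gated pore-forming subunits, 15 inward rectifiers, 14 two-pore-domain subunits, 8 calcium- or sodium-activated subunits, 17 auxiliary subunits and 1 noncoding transcript, Kcnq1ot1, which is described by itself.

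RNA of single forebrain nuclei was sequenced in a droplet assay. The groups were a sham control and mice 1 day, 3 days and 7 days after permanent MCAO, a stroke model in which the middle cerebral artery is closed for good. The name sham control is the deposited label, while the paper describes its control as uninjured and its control tissue as intact. All 4 groups were male C57Black/6 mice aged 3 months, with no other allele or agent named in the labels. Each group was 1 library made from 3 hemispheres pooled before sequencing, so a group has no replicate and the animals within a library cannot be separated.

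Potassium channels let potassium ions leave the cell, which sets the resting potential, repolarises the membrane after an action potential and, in glia, clears potassium from the extracellular space. Voltage-gated subunits open on depolarisation, calcium- and sodium-activated subunits open when those ions rise inside the cell, inward rectifiers pass current best near rest, and two-pore-domain subunits carry the background leak. Auxiliary subunits do not form the pore but change the gating or the placement of the pore-forming subunits they bind.

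Unique molecular identifiers (UMIs) each stand for 1 captured RNA molecule. The sham control library held 28195551 of them, the day 1 library 23285489, the day 3 library 42963698 and the day 7 library 25033355. In all 7925 nuclei were called, with a median between 5457 UMIs (day 3) and 11024 UMIs (day 1) per nucleus, and 7780 remained after the removal of likely doublets. No pair of libraries shared more than 3 nucleus barcodes. Nuclei were clustered without any Kcn gene and clusters were named from markers, so that each name below stands for a class that is like that cell type. The class called glutamatergic neurons pools the clusters with glutamatergic markers that took no subclass name. It is neither a single cell type nor all glutamatergic neurons, and a cluster in it had Rorb and Rspo1 among its leading genes. Between 19.4% and 23.3% of the nuclei of a library stayed unnamed. In the 14 classes with at least 10 nuclei in at least 3 libraries, all tested markers were called higher in 12 classes, 11 of 12 in glutamatergic neurons and 10 of 11 in subcortical glutamatergic neurons, which is a description, as the clusters had been named from these markers. Free RNA in the droplets, as measured in low-count barcodes, was expected to supply 2.18% to 16.0% of the UMIs of a class and library.

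Levels are in CPM, that is UMIs of the gene for each 1000000 UMIs of the class and library, and values of 4 libraries follow the order sham control, day 1, day 3 and day 7. Exonic and intronic reads were both counted, so a long gene gathers more UMIs, and levels of different genes are compared only per kilobase (kb) of gene length. Members ranged from 5.37 kb to 1135 kb, with a median of 59.8 kb over the 62 members that passed the filter on low counts, and across these members in glutamatergic neurons the log level went with the log length (Pearson r = 0.67, genes of the same libraries, not independent replicates). The strand setting of the counting is not given in the sources used here, so the 44 members that overlap another annotated gene, 17 of them on the same strand, may not be fully told apart from it.

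The library labels of day 3 and day 7 were checked in 2 ways. The nucleus numbers that the study gives for these time points are closer to the libraries with the labels traded. Genes of reactive microglia, a list the study chose on these samples, were then read in the microglia sums. Of 8 such genes 7 were highest in the library labelled day 3, among them Spp1 at 29.7, 234, 579 and 362 CPM and Gpnmb at 0, 4.04, 262 and 39.8 CPM (0, 1, 114 and 11 UMIs), and Igf1 was highest in the library labelled day 7. The study describes its reactive microglia as peaking at the middle post-injury time point. Most of these genes were highest in the library with that label. By these genes the labels as deposited are closer to the study's description, unlike by the nucleus numbers. Which labels are right was not tested, and every value follows them as deposited.

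Each class was compared with the equal-weight mean of the other classes by edgeR's quasi-likelihood test on UMI sums, with library as a term and Benjamini-Hochberg adjustment over all 12818 genes tested. A gene was called where the adjusted p was under 0.05 and the difference at least 2-fold. The 4 libraries served as replicates of a class, although they are different time points and the same nuclei had been clustered to form the classes, so the p-values measure how steadily a class difference recurred from library to library. Of the 95 members, 62 passed the filter and were tested, 27 of them voltage-gated, 10 inward rectifiers, 9 two-pore-domain, 5 calcium- or sodium-activated, 10 auxiliary and 1 noncoding. The filter keeps genes that are high in at least a few class sums, so counts over the 62 describe them and not all members.

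The subunits tested were mostly neuronal. Of the 62 members, 34 were called higher in neuronal classes only (all genes 16.1%), 18 in neuronal and other classes (all genes 13.8%), 8 in other classes only (Kcnj8, Kcnj10, Kcnj13, Kcnj16, Kcnk1, Kcnk5, Kcnk6 and Kcnrg, all genes 35%), and Kcnq1 and Kcnq1ot1 in none (all genes 35.1%). The highest mean level lay in a neuronal class for 45 members, against 26.5% of all genes tested, and in another class for 17. For 31 members the libraries of the highest class did not overlap with those of the next class, against 27.3% of all genes.

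Glutamatergic neurons and upper-layer glutamatergic neurons each had 28 of 62 members called higher (45.2%), against 9.79% and 10.1% of all genes tested. In dentate granule neurons 25 members were called higher (40.3%, all genes 8.97%), in subcortical glutamatergic neurons 21 (33.9%, all genes 10%), and in deep-layer glutamatergic neurons and striatal projection neurons 20 each (32.3%, all genes 9.28% and 10.9%). The interneurons had 17 members called higher in the Lhx6 class (27.4%, all genes 8.78%) and 15 in the Adarb2 class (24.2%, all genes 7%). The median log2 fold of the 62 members was between 0.24 and 0.83 in the 8 neuronal classes, while the median over all genes was between -0.04 and 0.02. Members called lower numbered 10 in striatal projection neurons (16.1%, all genes 8.32%, and 6 of 63, all genes 6.46%, without the day 3 library), 5 in upper-layer neurons (all genes 6.79%) and in Lhx6 interneurons (5.04%), 4 in deep-layer (7.68%) and subcortical neurons (6.25%), 3 in glutamatergic neurons (5.34%) and Adarb2 interneurons (3.15%), and 1 in dentate granule neurons (4.67%).

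Outside neurons the share of members called higher was above that of all genes in oligodendrocyte precursors and near or below it in the other 5 classes. Oligodendrocyte precursors had 10 of 62 members called higher (16.1%, all genes 10.9%), oligodendrocytes 8 (12.9%, all genes 13%), astrocytes 6 (9.68%, all genes 15.4%), microglia 5 (8.06%, all genes 13.4%), and endothelial cells and vascular leptomeningeal cells 3 each (4.84%, all genes 23.5% and 12.6%). Members called lower were frequent in endothelial cells (36 of 62, 58.1%, all genes 19.1%), vascular leptomeningeal cells (32, 51.6%, all genes 13.6%) and oligodendrocytes (32, 51.6%, all genes 13.8%), and fewer in astrocytes (11, 17.7%, all genes 5.17%, and 7 of 63, all genes 2.73%, without the day 3 library). Oligodendrocyte precursors had 4 members called lower (6.45%, all genes 3.1%) and microglia 2, Kcnn2 and Kcnc1 (3.23%, all genes 6.3%). The median log2 fold of the members was -1.83 in endothelial cells, -2.19 in leptomeningeal cells, -1.14 in oligodendrocytes, -0.50 in astrocytes, -0.44 in microglia and -0.20 in oligodendrocyte precursors.

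**Figure D1:**
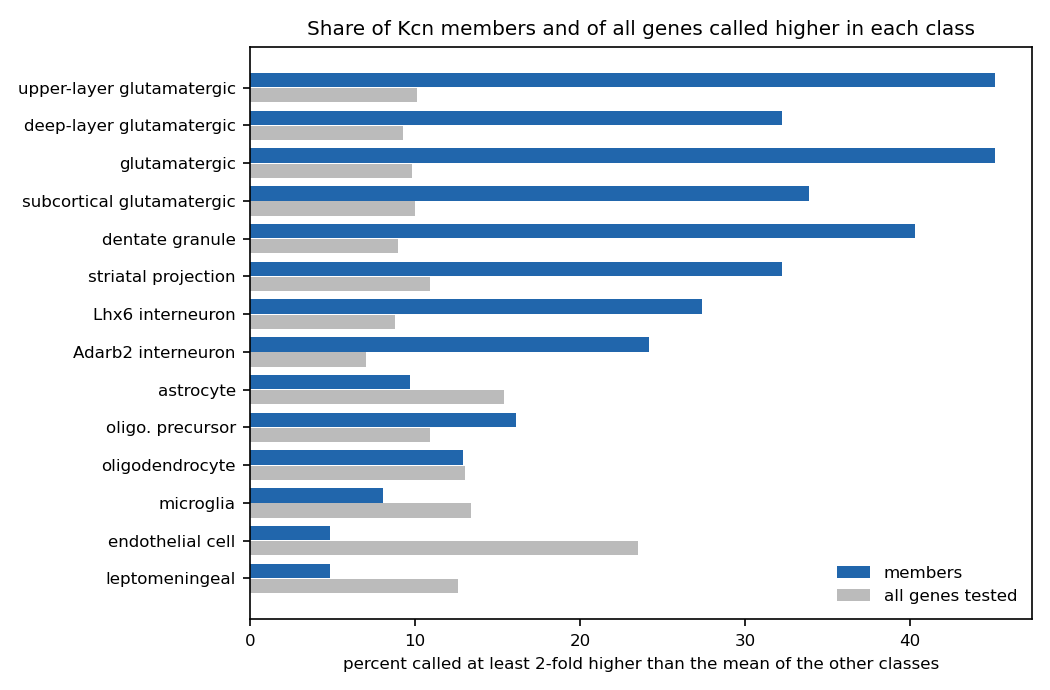
Share of the 62 tested members (blue) and of all 12818 genes (grey) called at least 2-fold higher in each of 14 classes, in percent. Members exceed all genes in each of the 8 neuronal classes and in oligodendrocyte precursors, from 24.2% against 7% in Adarb2 interneurons to 45.2% against 9.79% in glutamatergic neurons, and lie below in astrocytes, microglia, endothelial cells and leptomeningeal cells.

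**Figure D2:**
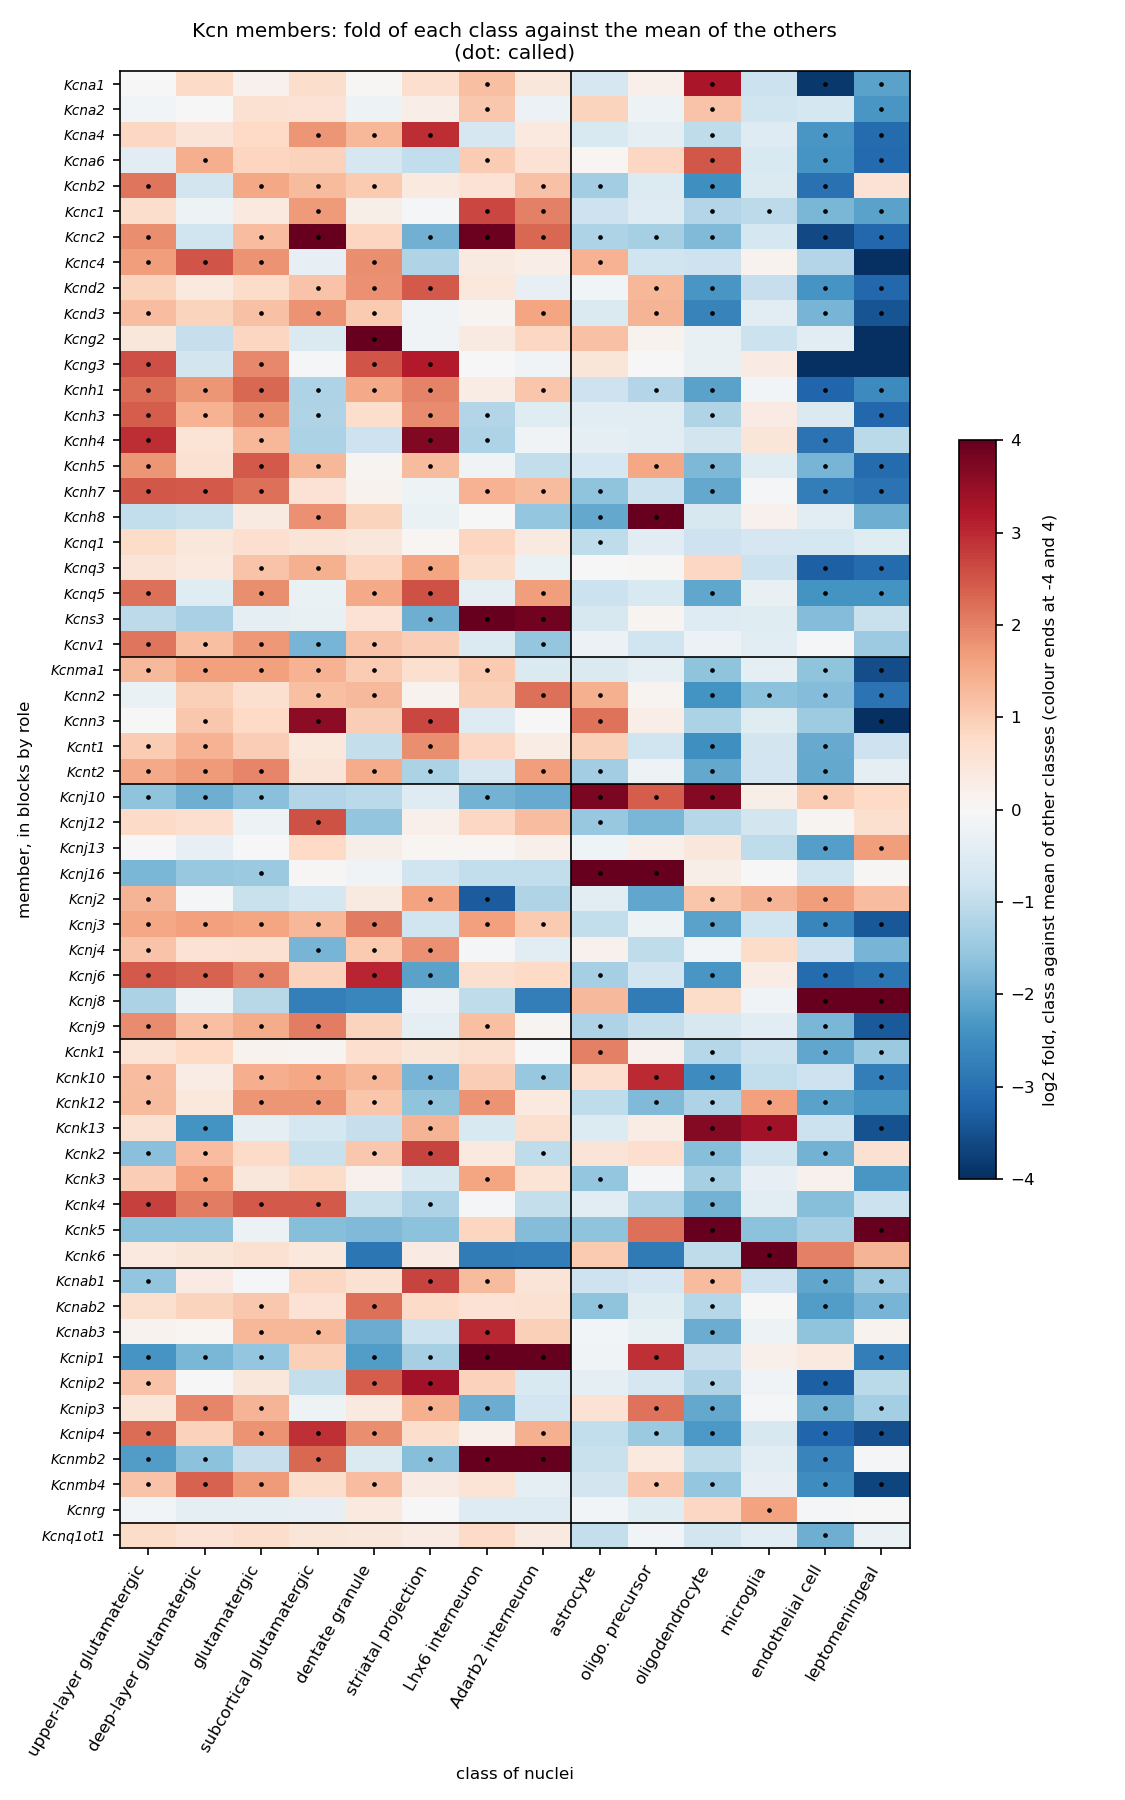
Log2 fold of each class (columns) against the mean of the other classes for the tested members reported here (rows, in blocks by role), with a dot where the difference was called. Red cells fill most of the 8 neuronal columns on the left, and blue cells most of the oligodendrocyte, endothelial and leptomeningeal columns, with single red cells such as Kcnj8 in endothelial cells (log2 fold 6.79) and Kcnh8 in oligodendrocyte precursors (5.46).

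Among voltage-gated subunits, the Kcna genes Kcna1, Kcna2 and Kcna6, which encode low-threshold channels of axons, had their highest mean in oligodendrocytes. Kcna1 (chr6:126640397-126646384, minus strand, GRCm38) was at 549, 725, 524 and 681 CPM there and at 157, 172, 146 and 159 CPM in Lhx6 interneurons, the class with the next highest level. Every oligodendrocyte library lay above every library of the other classes. The oligodendrocyte mean of 620 ± 98.4 CPM (SD, n = 4) was 3.27 log2 units (SE 0.11) above the mean of the other classes (adjusted p = 1.45e-35), and Lhx6 interneurons were 1.21 above (SE 0.14). Kcna6 was at 153 ± 27.9 CPM in oligodendrocytes (log2 fold 2.48) and 69.6 ± 4.58 CPM in deep-layer neurons (1.45), and the ranges did not overlap. Kcna2 showed a smaller lead, 59.4 ± 5.81 CPM in oligodendrocytes and 55.9 ± 8.96 CPM in Lhx6 interneurons, where both classes were called and their libraries overlapped. In contrast Kcna4, whose channel inactivates rapidly, was highest in striatal projection neurons at 91.0 ± 8.21 CPM (log2 fold 2.96) and was called lower in oligodendrocytes. Kcna1 is a compact gene of 5.99 kb, and per kb its oligodendrocyte level was 104 CPM, against 4.72 for Kcna6 and 4.28 for Kcna2.

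Kcnb2, which carries delayed rectifier current of the cell body, was highest in upper-layer neurons at 1140, 1168, 1224 and 1039 CPM (log2 fold 2.15, SE 0.14), and none of these libraries overlapped with glutamatergic neurons, which held 614 to 874 CPM.

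The Kcnc genes encode fast, high-threshold channels known for letting interneurons fire at high rates. Kcnc2 was at 2211, 2687, 2766 and 2923 CPM in subcortical glutamatergic neurons (log2 fold 4.37, SE 0.11) and at 1779, 1367, 2637 and 2450 CPM in Lhx6 interneurons (3.92, SE 0.11), and these overlapping classes stood above Adarb2 interneurons, whose libraries held 636 to 1037 CPM. Kcnc1 followed in the order Lhx6 interneurons, 272 ± 45.9 CPM (log2 fold 2.69), Adarb2 interneurons, 185 ± 29.0 CPM (2.03), and subcortical neurons, 141 ± 20.5 CPM (1.70). Kcnc4 was at 26.3 ± 5.92 CPM in deep-layer neurons (log2 fold 2.52), and was also called higher in astrocytes (15.9 ± 6.90 CPM, log2 fold 1.38).

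Kcnd2 and Kcnd3 form the A-type current, which opens and closes quickly below the firing threshold. Kcnd2, a gene of 514 kb, was at 6174, 5328, 6488 and 4969 CPM in striatal projection neurons (log2 fold 2.46, SE 0.15), above every library of the other tested classes, and was also called in dentate granule neurons (log2 fold 1.83), oligodendrocyte precursors (1.32) and subcortical neurons (1.13). Kcnd3 was spread more evenly. Its means were 412 ± 51.6 CPM in subcortical neurons, 392 ± 111 CPM in Adarb2 interneurons and 339 ± 61.6 CPM in oligodendrocyte precursors, with overlapping libraries, and it was not called in striatal projection neurons, where its log2 fold was -0.15.

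The Kcnq genes underlie the M current, a slow brake on repeated firing. Kcnq5 was highest in striatal projection neurons at 3717 ± 246 CPM (log2 fold 2.53), overlapping with upper-layer neurons at 3112 ± 326 CPM (2.19). Kcnq3 was at 1361 ± 195 CPM in subcortical neurons and 1311 ± 90.5 CPM in striatal projection neurons, and both were called. In oligodendrocytes it reached 986 ± 122 CPM, a log2 fold of 0.83 that stayed under 2-fold. Kcnq1 was spread over neurons at 126 to 159 CPM in its 4 highest classes and was called higher in no class, though lower in astrocytes.

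The Kcnh family, which holds the ether-a-go-go channels and their relatives, divided by class. Kcnh8 (chr17:52602709-52979194, plus strand) was at 314, 314, 196 and 326 CPM in oligodendrocyte precursors and at most 40.7 CPM in any library of the other tested classes. Its log2 fold of 5.46 (SE 0.23, adjusted p = 4.03e-29) was the largest of any member in that class. It was also called in subcortical neurons at 24.6 ± 14.0 CPM (log2 fold 1.83). Kcnh4 marked striatal projection neurons at 75.0 ± 8.85 CPM (log2 fold 3.70) and upper-layer neurons at 48.7 ± 5.44 CPM (2.96), without overlap between the classes. Kcnh3 was highest in upper-layer neurons at 69.5 ± 3.44 CPM (log2 fold 2.42), above the next class in every library. Kcnh7 stood at 2470 ± 201 CPM in deep-layer, 2444 ± 161 CPM in upper-layer and 2072 ± 245 CPM in glutamatergic neurons, and these classes overlapped. Kcnh5 was highest in glutamatergic neurons at 257 ± 55.6 CPM (log2 fold 2.44) and was also called in oligodendrocyte precursors at 178 ± 16.8 CPM (1.56). Kcnh1 was near level over glutamatergic, upper-layer and striatal neurons, at 371, 356 and 292 CPM. Kcnh1, Kcnh3 and Kcnh7 each overlap another gene (Hhat, Mcrs1 and Gca among them).

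Silent subunits of the Kcng, Kcns and Kcnv stems carry no current alone and modify Kcnb channels. Kcns3 separated the interneurons, with 77.0, 60.8, 95.3 and 81.7 CPM in Lhx6 interneurons (log2 fold 4.76, SE 0.20) and 47.7, 31.8, 56.0 and 43.8 CPM in Adarb2 interneurons (3.85, SE 0.35). No other tested class had a mean above 5.16 CPM. Kcng2 was at 83.1, 40.4 and 62.2 CPM in the 3 dentate granule libraries of the fit (log2 fold 4.36, SE 0.36), with the next class, astrocytes, at 8.69 ± 6.89 CPM. Kcng3 was at 20.3, 21.0, 20.6 and 21.2 CPM in striatal projection neurons (log2 fold 3.18). Kcnv1 was highest in upper-layer neurons at 36.7 ± 6.70 CPM (log2 fold 2.15), was also called higher in glutamatergic, deep-layer and dentate granule neurons, and was called lower in Adarb2 interneurons and subcortical neurons.

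Of the calcium- and sodium-activated subunits, Kcnma1, the large-conductance calcium-activated channel, had nearly equal means of 2065, 2036 and 1910 CPM in deep-layer, glutamatergic and subcortical neurons and was called in all of them and in upper-layer, dentate granule and Lhx6 neurons. The small-conductance Kcnn channels, which follow the calcium entry of a spike, were found in neurons and astrocytes. Kcnn3 was highest in subcortical neurons at 221 ± 37.1 CPM (log2 fold 3.59), followed by striatal projection neurons at 106 ± 16.0 CPM (2.67) and astrocytes at 84.4, 111, 113 and 88.0 CPM (2.18, SE 0.19). Kcnn2 was highest in Adarb2 interneurons at 639 ± 109 CPM (log2 fold 2.22), above every library of astrocytes, which came next at 397, 306, 455 and 463 CPM (1.42, SE 0.12). The sodium-activated Kcnt1 was highest in striatal projection neurons at 109 ± 11.6 CPM (log2 fold 1.86) and Kcnt2 in glutamatergic neurons at 549 ± 66.7 CPM (1.95). Kcnt2 was called lower in striatal projection neurons, where Kcnt1 was called higher.

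Inward rectifiers included glial and vascular members. Kcnj10 (chr1:172341210-172374085, plus strand), the main glial rectifier and the channel by which astrocytes take up potassium, was at 111, 124, 144 and 146 CPM in astrocytes and at 103, 143, 113 and 110 CPM in oligodendrocytes. The 2 classes overlapped, and every library of both lay above every neuronal library. The log2 fold was 3.75 in astrocytes (SE 0.18, adjusted p = 6.49e-27), 3.67 in oligodendrocytes (SE 0.18) and 2.43 in oligodendrocyte precursors (SE 0.29), whose libraries held 30.2, 47.7, 71.8 and 70.8 CPM. It was also called in endothelial cells (log2 fold 1.03, adjusted p = 0.0491), a call just past the threshold on 20 UMIs that was lost without day 1 (adjusted p = 0.0555), day 3 (0.198) or day 7 (0.146). Kcnj16, which combines with Kcnj10, was called higher in astrocytes (22.2, 54.4, 35.8 and 20.9 CPM, log2 fold 4.19) and in oligodendrocyte precursors (15.1, 35.8, 32.7 and 37.8 CPM, log2 fold 4.05). In oligodendrocytes, where Kcnj10 was as high as in astrocytes, Kcnj16 was at 2.29 ± 1.13 CPM.

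Kcnj8 (chr6:142564837-142571614, minus strand), the pore of the vascular ATP-sensitive channel, was at 89.3, 59.2 and 131 CPM in the 3 endothelial libraries of the fit and at 124, 92.1, 50.1 and 0 CPM in leptomeningeal cells, and every other tested class had a mean of 1.52 CPM or less. The log2 folds were 6.79 (SE 0.48, adjusted p = 1.33e-17) and 6.05 (SE 0.64). These levels rest on 56 and 21 UMIs. Its partner Abcc9, the regulatory subunit of that channel, was at 192 ± 66.1 CPM in endothelial cells (log2 fold 7.58) and 181 ± 161 CPM in leptomeningeal cells (6.90). Both genes are known from mural cells, the pericytes and smooth muscle of vessels, which formed no class here. The 12 mural markers together were at 7587, 4348 and 7140 CPM in the endothelial libraries of the fit, with 1, 0 and 0 of the 12 at 0 UMIs and the pericyte gene Rgs5 at 3134, 1792 and 2691 CPM. In leptomeningeal cells they were at 5041, 3638, 2580 and 1600 CPM with 2, 4, 0 and 5 at 0 UMIs, against 23.4 to 27.4 CPM in glutamatergic neurons. Their part in the Kcnj8 and Abcc9 levels was not tested.

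Kcnj13 (chr1:87386363-87394729, minus strand), known from the choroid plexus, lies inside Gigyf2 on the other strand, so its UMIs may not be fully told apart from those of Gigyf2. It was called in leptomeningeal cells (82.9, 46.1, 25.05 and 64.6 CPM from 16 UMIs, log2 fold 1.68). The 10 choroid plexus markers were at 253 to 663 CPM in leptomeningeal cells, with 4 to 8 of the 10 at 0 UMIs, where free RNA was expected to give 297 to 570 CPM. In an unnamed cluster of 178 nuclei whose closest list was choroid plexus, Kcnj13 was at 102 CPM (exact Poisson 95% interval 84.0 to 122) and Kcne2, its neighbour in that tissue, at 36.5 CPM (26.3 to 49.3). In the other 7 unnamed clusters Kcnj13 was between 2.66 and 16.1 CPM and Kcne2 at most 5.24 CPM.

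The G protein-gated rectifiers, which quiet neurons when inhibitory receptors are active, were neuronal. Kcnj6 was at 653, 539 and 737 CPM in dentate granule neurons (log2 fold 3.06), then at 404 ± 41.0 CPM in upper-layer and 385 ± 24.8 CPM in deep-layer neurons, and it was called lower in striatal projection neurons. Kcnj3 was at 668 ± 90.0 CPM in dentate granule neurons (log2 fold 2.09), overlapping with Lhx6 interneurons at 565 ± 77.8 CPM (1.63). Kcnj9 was highest in subcortical neurons at 70.3 ± 19.0 CPM (log2 fold 2.05). The strong rectifier Kcnj4 was at 37.0 ± 2.86 CPM in striatal projection neurons (log2 fold 1.83), Kcnj12 at 28.1 ± 7.71 CPM in subcortical neurons (2.55), and Kcnj2 at 25.8 ± 11.1 CPM in endothelial cells (1.66, 16 UMIs) and 29.7, 24.2, 11.5 and 14.5 CPM in microglia (1.35, 23 UMIs). The endothelial call of Kcnj2 was lost without day 7 (edgeR adjusted p = 0.0688).

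Among the 62 tested members, two-pore-domain subunits were the role with the most members highest outside neurons. Kcnk13, the leak channel that sets the resting potential of microglia, was as high in oligodendrocytes as in microglia. Oligodendrocytes held 280, 183, 177 and 243 CPM (log2 fold 3.67, SE 0.16) and microglia 197, 234, 274 and 156 CPM (3.35, SE 0.20), overlapping each other and above every library of the other tested classes. Striatal projection neurons were called as well at 41.4 ± 8.24 CPM (log2 fold 1.36). Kcnk6 was at 22.3, 32.3, 66.7 and 43.4 CPM in microglia (log2 fold 5.68, SE 0.44, 55 UMIs), and every other tested class had a mean of 4.04 CPM or less. Kcnk12, a close relative of Kcnk13, was at 35.9 ± 16.0 CPM in microglia (log2 fold 1.63), overlapping with Lhx6 interneurons at 31.6 ± 7.997 CPM (1.78).

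Kcnk1, known from astrocytes, was at 150, 101, 149 and 97.3 CPM there (log2 fold 2.01, SE 0.15), and every astrocyte library lay above every deep-layer library, the next class at 42.0 to 55.6 CPM. The mechanically gated Kcnk10 was at 223, 139, 189 and 184 CPM in oligodendrocyte precursors (log2 fold 2.99, SE 0.18), above the next class in every library. Its relative Kcnk2 was at 415, 302, 460 and 348 CPM in striatal projection neurons (log2 fold 2.697, SE 0.10), and Kcnk4 at 18.6 ± 3.72 CPM in upper-layer neurons (2.73), where it overlaps Catsperz on the same strand. Kcnk5 was at 96.7, 115, 37.6 and 48.5 CPM in leptomeningeal cells (log2 fold 7.32, 21 UMIs) and at 8.50 ± 4.14 CPM in oligodendrocytes (4.54, 24 UMIs). The oligodendrocyte call of Kcnk5 had an adjusted p of 6.06e-09 with edgeR and 0.224 with DESeq2. Kcnk3, an acid-sensitive leak channel, was at 27.1 ± 3.41 CPM in Lhx6 interneurons and 26.0 ± 5.76 CPM in deep-layer neurons, both called.

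Auxiliary subunits included the member with the most UMIs and several with large class differences. Kcnmb2, which makes large-conductance calcium-activated channels inactivate, was at 888, 1005, 895 and 785 CPM in Lhx6 interneurons (log2 fold 5.14, SE 0.19) and 679, 430, 514 and 577 CPM in Adarb2 interneurons (4.32, SE 0.27), without overlap. The third class, subcortical neurons, was at 140 ± 44.2 CPM. Kcnmb4, the neuronal relative, had another pattern, with 94.9 ± 13.4 CPM in deep-layer neurons (log2 fold 2.36) against 61.6 ± 4.64 CPM in glutamatergic neurons.

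The Kcnip genes encode calcium-binding proteins that carry Kcnd channels to the surface, and each had its own classes. Kcnip1 was at 1009, 768, 1078 and 956 CPM in Adarb2 interneurons (log2 fold 4.55), 710, 692, 628 and 760 CPM in Lhx6 interneurons (4.10) and 287, 552, 233 and 406 CPM in oligodendrocyte precursors (2.94), in that order and without overlap between neighbours. It was called lower in 5 neuronal classes, the upper-layer, deep-layer, glutamatergic, dentate granule and striatal neurons, and in leptomeningeal cells. Kcnip2 was at 228, 196, 220 and 202 CPM in striatal projection neurons (log2 fold 3.35, SE 0.11), above dentate granule neurons at 118 ± 15.0 CPM (2.41). Kcnip3, also known as a repressor of transcription, was at 646, 401, 366 and 293 CPM in oligodendrocyte precursors (log2 fold 2.16) and at 307 ± 61.0 CPM in deep-layer neurons (1.95). Kcnip4, the longest member and the one with the most UMIs (380346 in all nuclei), was at 18460, 16916, 17862 and 19365 CPM in subcortical neurons (log2 fold 2.91, SE 0.15) and 10695 ± 230.2 CPM in upper-layer neurons (2.23). Per kb these were 16.0 and 9.42 CPM, and 24 genes lie inside or across Kcnip4 on its own strand.

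The cytosolic beta subunits were spread likewise. Kcnab1 was at 685 ± 104 CPM in striatal projection neurons (log2 fold 2.69), 331 ± 64.2 CPM in oligodendrocytes (1.27) and 320 ± 33.3 CPM in Lhx6 interneurons (1.26). Kcnab2 was at 128 ± 12.8 CPM in dentate granule neurons (log2 fold 2.19) and Kcnab3 at 26.8 ± 7.20 CPM in Lhx6 interneurons (3.02), each above the next class in every library. Kcnrg, a regulator of channel assembly, was at 104, 60.6, 87.4 and 90.5 CPM in microglia (log2 fold 1.62) and lies opposite Dleu2. The noncoding Kcnq1ot1 lies inside Kcnq1 on the other strand, was at 631 ± 62.0 CPM in Lhx6 interneurons and 514 to 545 CPM in the next 3 classes, all neuronal, and was called lower in endothelial cells.

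**Figure D3:**
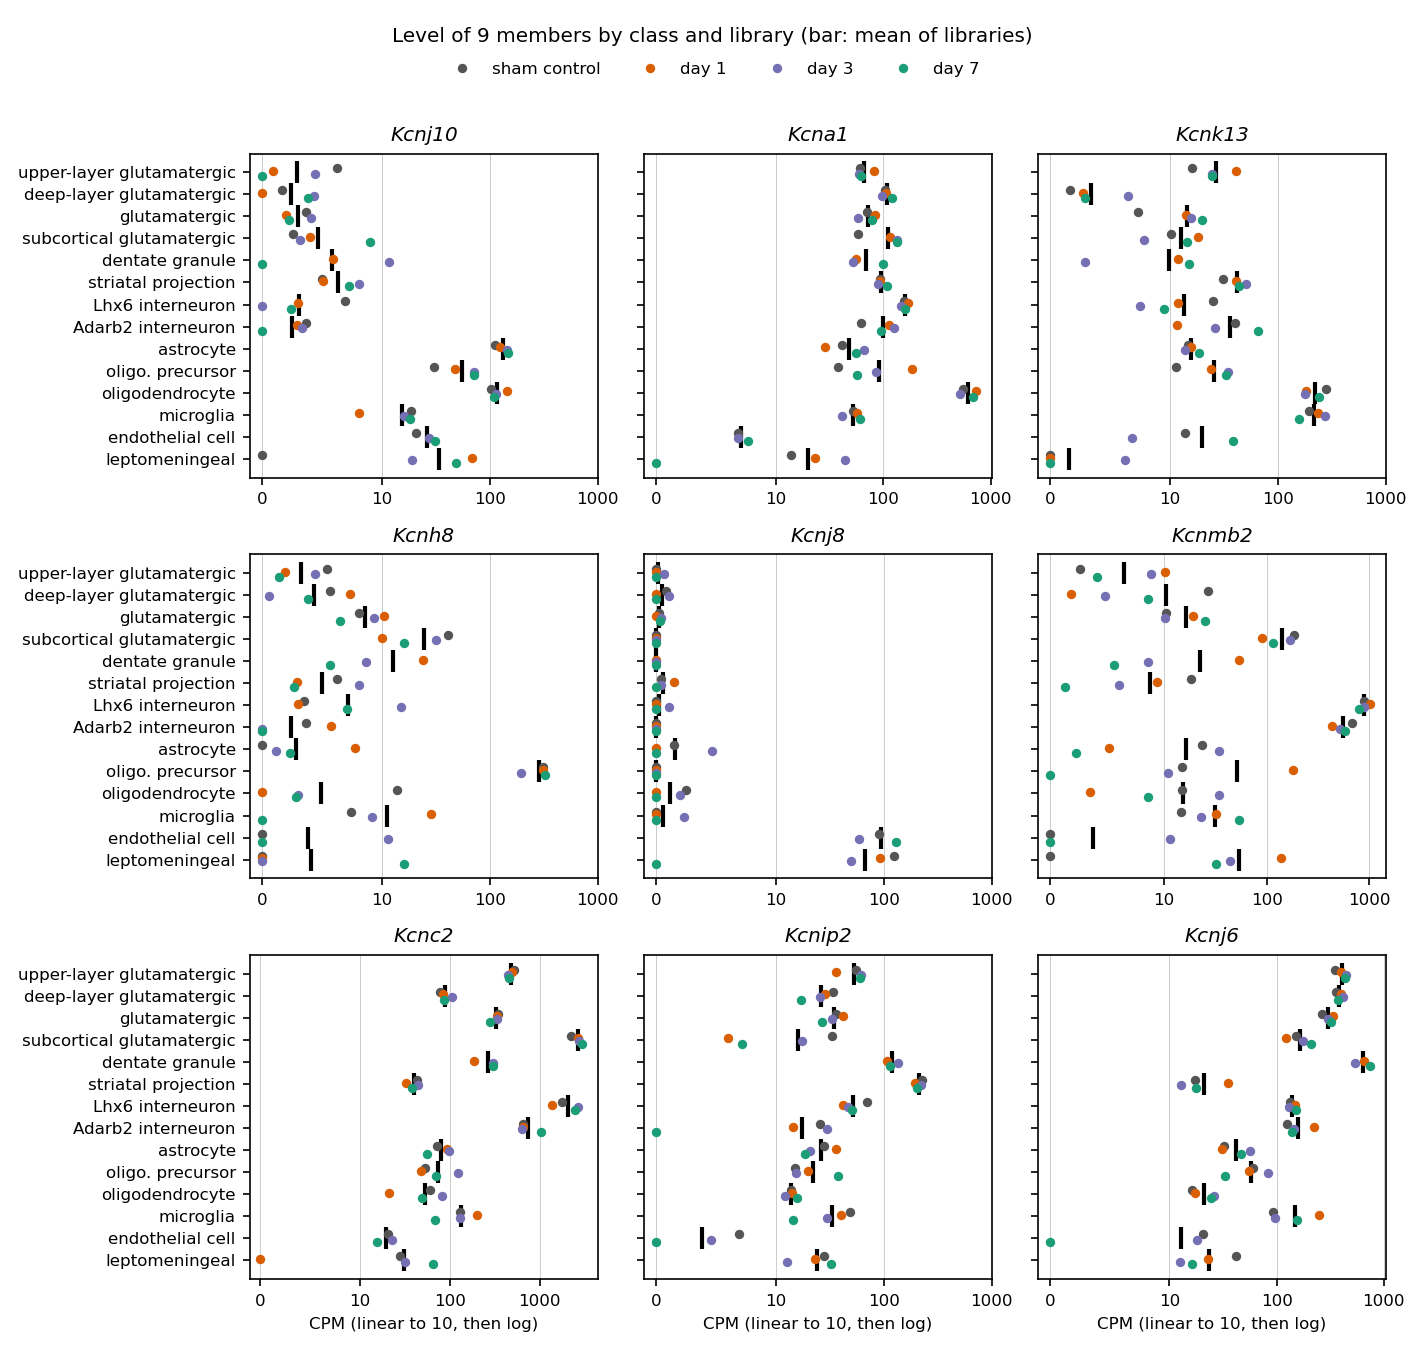
CPM of 9 members in each library (points) of 14 classes, with the mean of the libraries as a bar, on an axis that is linear to 10 and logarithmic above. Kcnj10 is highest in astrocytes and oligodendrocytes, Kcna1 in oligodendrocytes, Kcnk13 in oligodendrocytes and microglia, Kcnh8 in oligodendrocyte precursors, Kcnj8 in endothelial and leptomeningeal cells, Kcnmb2 in both interneuron classes, Kcnc2 in subcortical neurons and Lhx6 interneurons, Kcnip2 in striatal projection neurons and Kcnj6 in dentate granule neurons.

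Genes that assemble with or place potassium channels, from a fixed list of 12, were tested for 7. Dpp6 and Dpp10, partners of Kcnd channels, and Cntnap2, which holds Kcna channels at myelinated axons, were called higher in 5, 6 and 5 neuronal classes. Dpp10 was highest in upper-layer neurons at 1632 ± 126 CPM (log2 fold 2.21). Abcc8, the neuronal partner of ATP-sensitive pores, was called in 6 neuronal classes. Lgi1 was called in 3 neuronal classes and in astrocytes (186 ± 6.63 CPM, log2 fold 1.31), and Fgf13 in 3 neuronal classes, led by Adarb2 interneurons at 1695 ± 346 CPM (3.45), and in microglia (554 ± 59.5 CPM, 1.43). Dpp6 and Fgf13 were called lower in deep-layer neurons, Fgf13 in glutamatergic neurons and Dpp10 in dentate granule neurons. Of the 7 partners 6 were called lower in oligodendrocytes and in endothelial cells (all genes 13.8% and 19.1%), 5 in leptomeningeal cells (13.6%) and 4 in astrocytes (5.17%).

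Under the filter lay 33 members, from Kcng1 with 556 UMIs in all nuclei to Kcnk16 with 0, and 11 of them had fewer than 20 UMIs. Kcnn4, the calcium-activated channel often studied in microglia, had 2, 2, 3 and 0 UMIs in the microglia sums, and Kcna3 had 0 in each, which allows up to 11.1, 12.1, 6.90 and 10.9 CPM (3 UMIs of the class total). Kcnn4 was highest in the small ependymal class, with 32.1, 62.5, 44.0 and 13.6 CPM from 18 UMIs. Kcnj11, the other ATP-sensitive pore, had 7 UMIs in all, and Kcnn1 had 189. Kcnk9 reached 16.9, 10.1, 18.8 and 12.4 CPM in deep-layer neurons from 80 UMIs.

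For the 8 fixed members with the most UMIs, the most similar members over the 54 class and library sums were found by Pearson's r of log2(CPM + 1), as a description. Kcnip4 went with Kcnj3 (r = 0.85) and Kcnd3 (0.80), Kcnc2 with Kcnc1 (0.82) and Kcnip4 (0.77), and Kcnh7 with Kcnab2 (0.81). Kcnd2 went with Kcnma1 (0.81), Kcnq5 with Kcnh1 (0.80) and Kcnip4 (0.76), Kcnb2 with Kcnq1ot1 (0.78) and Kcnq1 (0.69), and Kcnq3 with Kcnma1 (0.77) and Kcnn3 (0.73). The points share libraries, and the 54 sums come from 14 classes.

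The summed level of all members was likewise higher in the neuronal classes than in the others. It was 31274 to 34696 CPM in subcortical neurons and 16444 to 27783 CPM in the other neuronal classes of the fit, 10152 to 13056 CPM in oligodendrocyte precursors, 6875 to 9251 CPM in astrocytes, 4736 to 5876 CPM in oligodendrocytes, and 1681 to 5180 CPM in endothelial and leptomeningeal cells over the libraries of the fit. Kcnip4 alone gave 16916 to 19365 CPM of the subcortical sums. Microglia moved between libraries, with 12092, 10055, 7108 and 7894 CPM. Free RNA was expected to supply 1190 to 2006 CPM of the oligodendrocyte sums and 688 to 1953 CPM of the microglia sums.

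To follow the members after injury, the CPM of each later library was divided by that of sham control within a class. With 1 library per group there is no replicate check and no test, and the 95% intervals (exact conditional binomial) cover counting error only. The 3 days share the sham control library, so a sham value that is off by chance moves all 3 ratios. A member was counted where the pair of sums held at least 50 UMIs and the ratio was at least 1.5-fold, in the 9 classes with at least 200 nuclei, and the same share over all genes with as many UMIs is given beside it. A lower level in a class sum can mean fewer nuclei that hold the RNA or less RNA per nucleus. The mix of clusters also differed between libraries. In glutamatergic neurons the cluster with Rorb held 75, 31, 90 and 32 of 317, 156, 495 and 262 nuclei. The cluster with Ndst4 among its leading genes held 64, 45, 123 and 86. Dentate granule neurons numbered 4, 18, 45 and 44. The part of such shifts in the ratios was not tested.

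Most member and class pairs lay within 1.5-fold of sham control, and in these sums the share past it was larger for members than for all genes on each day. Over the 9 classes, 65 of 296 pairs were at least 1.5-fold from sham control at day 1 (22%, 32 higher and 33 lower, all genes 13.1%). At day 3 they numbered 53 of 320 (16.6%, 18 higher and 35 lower, all genes 11.3%) and at day 7 52 of 288 (18.1%, 15 higher and 37 lower, all genes 13.2%). With nuclei thinned to 1000 UMIs the share of members was near or below that of all genes, at 18 of 100 pairs on day 1 (all genes 17.2%), 7 of 129 on day 3 (11.8%) and 12 of 105 on day 7 (13.7%).

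In neurons the share of members was above that of all genes in 9 of 15 class and day comparisons and below it in 6. In glutamatergic neurons 7 of 54 members were past 1.5-fold at day 1 (all genes 9.02%), 4 of 58 at day 3 (6.49%) and 8 of 55 at day 7 (10.6%). Upper-layer neurons had 10 of 39 (15.8%), 3 of 42 (9.87%) and 3 of 35 (14.1%), deep-layer neurons 5 of 39 (11.2%), 2 of 42 (8.75%) and 7 of 38 (11.3%), striatal projection neurons 6 of 44 (9%), 5 of 45 (7.82%) and 2 of 44 (9.16%), and Lhx6 interneurons 3 of 37 (9.82%), 4 of 38 (10.3%) and 3 of 35 (12.4%). The median log2 ratio of the members in these 15 comparisons was between -0.12 and 0.06.

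In glia the share of members was above that of all genes in 12 of 12 comparisons, with fewer members that had enough UMIs. Astrocytes had 7 of 26 members past 1.5-fold at day 1 (all genes 19.2%), 9 of 31 at day 3 (15.2%) and 10 of 25 at day 7 (19.2%), of which 3, 7 and 10 were lower (all genes 12.2%, 8.39% and 12%). Oligodendrocytes had 7 of 18 (16.2%), 7 of 23 (11%) and 5 of 20 (14.1%), and oligodendrocyte precursors 9 of 20 (18.6%), 7 of 23 (17.6%) and 6 of 18 (17.9%). Microglia had 11 of 19 (26.1%), 12 of 18 (33.7%) and 8 of 18 (25%), of which 5, 12 and 6 were lower (12.9%, 14% and 11.7%). The 10 general neuron markers, which are not absent from glia (Celf2 alone was at 4551 CPM in sham control microglia), were summed in the same libraries and stood at 9557, 11312, 7530 and 6876 CPM in astrocytes, at 11030, 10207, 13392 and 9364 CPM in oligodendrocyte precursors and at 4248, 3240, 5281 and 2973 CPM in oligodendrocytes, and their part in these shares was not tested.

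**Figure D4:**
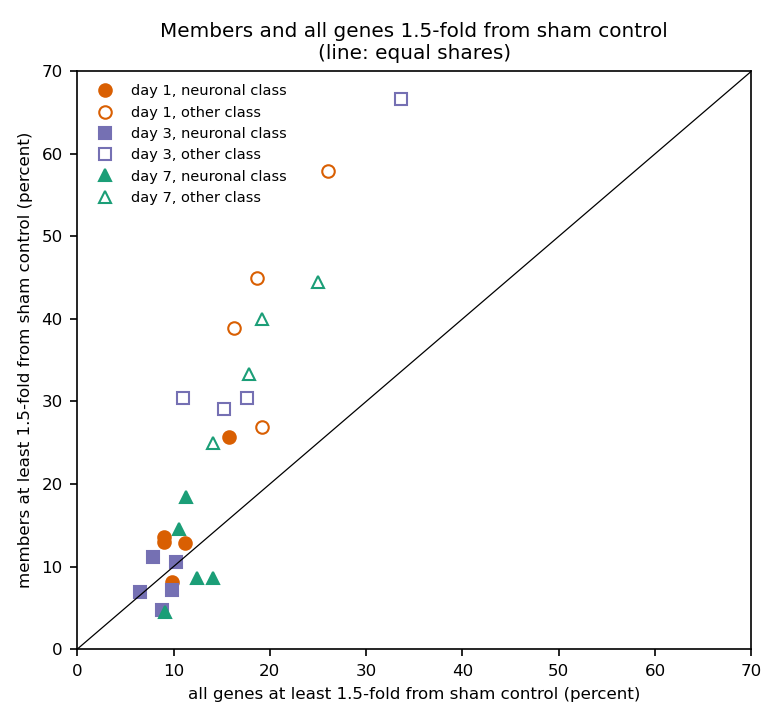
Percent of members (y axis) against percent of all genes (x axis) at least 1.5-fold from sham control in either direction, 1 point per class and day, filled for neuronal and open for other classes, with the line of equal shares. The neuronal points run from 2 of 44 members in striatal projection neurons at day 7 to 10 of 39 in upper-layer neurons at day 1, and the open points all lie above the line, up to 12 of 18 members in microglia at day 3.

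The number of members lower in microglia at day 3 depended on how nuclei were weighted and clustered. In the main sums 12 of 18 members were lower and the median log2 ratio of the members was -0.79, against 0.14 over all genes. Single deep nuclei held much of the sham sums, 42.6% of the Kcnd2 UMIs and 25% to 38.3% of those of Kcnj3, Kcnq3 and Kcnq5. With the mean over nuclei 2 of 18 members were lower (all genes 9.71%), with libraries merged before clustering 5 of 18 (8.11%), and with nuclei thinned to 1000 UMIs 0 of the 6 that still had enough (9.66%). With TMM scaling 12 of 18 were lower (16.7%) and with free RNA taken off 11 of 17 (15.8%). The sum of the 10 general neuron markers in microglia was 18057 CPM in sham control and 14390, 9304 and 11771 CPM on the 3 days, with none at 0 UMIs and 1085 to 2851 CPM expected from free RNA. Of these markers 5 of 10 were lower than in sham control at day 1, when Celf2 and Syt1 fell most, and 10 of 10 at day 3 and at day 7, and their part in the lower member values was not tested. Kcnd2 was at 1881 CPM in sham control and at 723, 708 and 655 CPM on the 3 days, ratios of 0.385 (0.322 to 0.457), 0.377 (0.326 to 0.435) and 0.348 (0.292 to 0.414). Kcnk13 and Kcnk6, both called higher in microglia than in the mean of the other classes, had no lower value at day 3, with Kcnk13 at 274 CPM against 197 CPM in sham control (ratio 1.39, 0.999 to 1.96) and Kcnk6 at 66.7 against 22.3 CPM on 29 and 6 UMIs. The other members called higher in microglia, Kcnk12, Kcnrg and Kcnj2, were lower at day 3 than in sham control, with Kcnj2 at 11.5 against 29.7 CPM.

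Kcnd3, a pore of the A-type current, was above sham control in most neuronal sums. In glutamatergic neurons it was at 191, 276, 248 and 304 CPM, ratios of 1.44 (1.30 to 1.59), 1.30 (1.18 to 1.42) and 1.59 (1.45 to 1.75). Upper-layer neurons held 187, 336, 230 and 330 CPM, ratios of 1.80 (1.51 to 2.15), 1.23 (1.04 to 1.47) and 1.77 (1.46 to 2.14). Deep-layer neurons gave ratios of 1.42, 1.23 and 1.72, and Lhx6 interneurons 1.36, 1.52 and 1.67, with each interval above 1, and 1 nucleus held 28.4% of the day 1 Kcnd3 UMIs of the Lhx6 class. In striatal projection neurons the ratios were 1.23, 0.952 and 1.44, and the interval left out 1 at day 7 alone. In astrocytes and oligodendrocyte precursors the Kcnd3 ratios were 1.22, 0.916 and 1.22 in the former and 0.931, 0.839 and 0.642 in the latter. Kcnd3 overlaps Kcnd3os on the other strand. Kcnd2, its relative, did not follow, as its ratios in glutamatergic neurons were 0.803, 0.973 and 0.850.

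Kcnk13 was above sham control from a low level in glutamatergic neurons on all 3 days, and below it in oligodendrocytes at day 1 and day 3. Glutamatergic neurons held 7.30, 14.0, 15.6 and 19.9 CPM, ratios of 1.92 (1.16 to 3.22), 2.14 (1.38 to 3.40) and 2.73 (1.74 to 4.40). There 1 nucleus held 23.8% of the Kcnk13 UMIs at day 1, 5.88% at day 3 and 9.86% at day 7. At day 1 upper-layer neurons were at 40.9 against 16.2 CPM (2.54, 1.44 to 4.66, with 20.5% of the UMIs in 1 nucleus), and at day 3 the ratio of 1.52 (0.851 to 2.83) held 1. Striatal projection neurons had Kcnk13 ratios of 1.32 (0.917 to 1.90), 1.65 (1.23 to 2.22) and 1.42 (1.00 to 2.01). Lhx6 interneurons, on 22, 8, 7 and 8 UMIs, too few to be counted, were at 0.469, 0.297 and 0.375 of sham control. In oligodendrocytes the ratios were 0.656 (0.516 to 0.831), 0.633 (0.517 to 0.775) and 0.869 (0.708 to 1.06). Free RNA was expected to give under 1 CPM of Kcnk13 in glutamatergic neurons in each library.

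Kcnj3, a G protein-gated rectifier, was below sham control in the glutamatergic classes and in oligodendrocyte precursors. The ratios were 0.828, 0.857 and 0.798 in glutamatergic neurons, 0.583, 0.862 and 0.723 in upper-layer neurons, 0.798, 0.857 and 0.735 in deep-layer neurons and 0.526 (0.348 to 0.781), 0.591 (0.427 to 0.818) and 0.512 (0.329 to 0.783) in oligodendrocyte precursors. Striatal projection neurons went the other way at day 1, with a Kcnj3 ratio of 1.70 (1.39 to 2.07).

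The leak channel Kcnk2 was at 149, 96.6, 113 and 106 CPM in glutamatergic neurons, ratios of 0.647 (0.559 to 0.746), 0.756 (0.674 to 0.849) and 0.709 (0.621 to 0.809), and in astrocytes its ratios were 0.706, 0.564 and 0.513. Upper-layer neurons had Kcnk2 ratios of 0.441 (0.234 to 0.795), 0.773 (0.492 to 1.22) and 0.419 (0.194 to 0.833), and oligodendrocytes 0.363 (0.173 to 0.710, 26.3% in 1 nucleus) at day 7. Striatal projection neurons were at 0.728 (0.648 to 0.817) at day 1, 1.11 (1.02 to 1.21) at day 3 and 0.838 (0.753 to 0.932) at day 7. Lhx6 interneurons differed in direction, with ratios of 1.14, 1.11 and 1.43 (1.05 to 1.95), where the interval left out 1 at day 7 alone. Kcnh5 was at 330, 219, 269 and 209 CPM in glutamatergic neurons, ratios of 0.663 (0.602 to 0.729), 0.815 (0.756 to 0.880) and 0.633 (0.577 to 0.693). In upper-layer neurons Kcnh5 was at 0.379 of sham control at day 1 (0.295 to 0.485), 1.02 at day 3 and 0.539 at day 7 (0.417 to 0.692), while in striatal projection neurons it was at 1.60 at day 1 (1.32 to 1.94) and 1.20 (1.00 to 1.44) at day 3. Kcnab1 was lower in upper-layer neurons, at 0.392 (0.245 to 0.614), 0.675 (0.480 to 0.947) and 0.701 (0.453 to 1.07) of sham control, and higher in deep-layer neurons, at 1.83 (1.47 to 2.28, with 21.6% of the UMIs in 1 nucleus), 1.37 (1.12 to 1.70) and 1.54 (1.23 to 1.94).

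Among interneuron and striatal members, Kcnip2 in Lhx6 interneurons was at 70.1, 41.5, 46.1 and 50.9 CPM, ratios of 0.592 (0.364 to 0.941), 0.657 (0.434 to 0.987) and 0.726 (0.480 to 1.09), and Kcnc1 was at 324, 224, 245 and 296 CPM there, ratios of 0.691 (0.563 to 0.845), 0.757 (0.633 to 0.904) and 0.913 (0.767 to 1.09). Kcnq1 was lower in striatal projection neurons at day 3 (0.547, 0.444 to 0.672) and day 7 (0.645, 0.509 to 0.811), and shares its locus with Kcnq1ot1. Kcnip1 in glutamatergic neurons was at 22.4, 5.35, 13.6 and 23.3 CPM, a ratio of 0.239 at day 1 (0.131 to 0.410) and 1.04 at day 7.

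The other large ratios of the neuronal classes, each with an interval that left out 1, were spread over the roles, and where 1 nucleus held much of the UMIs of the higher sum its share is given. In glutamatergic neurons Kcnab3 was at 0.374 (0.221 to 0.621) of sham control and Kcnip1 at 0.605 (0.438 to 0.836) at day 3, while Kcnv1 was at 1.30 (1.03 to 1.66). Kcnk4 was at 0.659 (0.436 to 0.987) there at day 7, and the auxiliary Kcnmb2 was at 1.86 (1.22 to 2.85, 24.1% in 1 nucleus) at day 1 and 2.40 (1.63 to 3.58, 20.2% in 1 nucleus) at day 7. In upper-layer neurons Kcnj6 was at 1.25 (1.11 to 1.42) and Kcnk12 at 0.575 (0.333 to 0.986) at day 3. Deep-layer neurons held ratios on both sides of sham control. Below it were Kcnj9 at 0.469 (0.285 to 0.751) and Kcnt2 at 0.679 (0.600 to 0.768) at day 1, and Kcnab2 at 0.557 (0.370 to 0.824) and Kcnip2 at 0.508 (0.275 to 0.901) at day 7. Above it were Kcnn3 at 1.70 (1.11 to 2.64, 19.3% in 1 nucleus) at day 1 and 1.65 (1.07 to 2.58) at day 7, and Kcnip3 at 1.56 (1.35 to 1.79) and Kcnmb4 at 1.42 (1.11 to 1.82) at day 3, when Kcnq1 was at 0.635 (0.507 to 0.795).

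In striatal projection neurons the silent subunit Kcng1 was at 1.98 (1.18 to 3.35) and Kcnj6 at 2.04 (1.32 to 3.15, 34.7% in 1 nucleus) of sham control at day 1, and Kcnip1 was at 1.81 (1.13 to 2.92, 26.8% in 1 nucleus) at day 7. Kcnn2 was lower there, at 0.720 (0.595 to 0.869) at day 1 and 0.799 (0.668 to 0.952) at day 7. In Lhx6 interneurons the auxiliary subunit Kcnip3 was at 2.05 (1.17 to 3.67, 22.9% in 1 nucleus) of sham control at day 1 and Kcnmb4 at 2.07 (1.16 to 3.84) at day 3. Kcnh1 was at 0.654 (0.488 to 0.872) and Kcnq1 at 0.665 (0.512 to 0.860) of sham control in these interneurons at day 7.

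In astrocytes Kcnj10 had ratios of 1.12, 1.30 and 1.31, all with intervals that held 1, and Kcnk1 had ratios of 0.676 (0.455 to 0.987), 0.996 and 0.651 (0.443 to 0.941). Kcnq1 was lower in astrocytes, at 87.4, 54.4, 27.7 and 44.0 CPM, a ratio of 0.317 at day 3 (0.189 to 0.518) and 0.504 (0.284 to 0.857) at day 7. Kcnt2 was at 0.562, 0.539 and 0.502 of sham control there, but 1 nucleus held 54.3% of its sham UMIs. Astrocytes also held rises at day 1, with Kcnb2 at 2.12 (1.59 to 2.85, 26.9% in 1 nucleus) and Kcnq5 at 1.75 (1.51 to 2.03, 22.1% in 1 nucleus), while Kcnh7 was at 0.662 (0.502 to 0.866, 21.4% in 1 nucleus). At day 3 Kcna1 was at 1.62 (1.01 to 2.63) and Kcnj6 at 1.74 (1.03 to 3.02, 26.5% in 1 nucleus) there, and at day 7 Kcnq3 was at 1.28 (1.10 to 1.49) and Kcnb2 at 0.492 (0.310 to 0.760).

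In oligodendrocytes Kcna1 had ratios of 1.32 (1.15 to 1.51), 0.955 (0.839 to 1.09) and 1.24 (1.09 to 1.42), and Kcnj10 1.39 (1.01 to 1.91), 1.10 and 1.07. Kcnip3 in oligodendrocyte precursors was at 646, 401, 366 and 293 CPM, ratios of 0.621 (0.481 to 0.799), 0.566 (0.455 to 0.704) and 0.453 (0.333 to 0.609). In deep-layer neurons Kcnip3 was at 235, 349, 365 and 279 CPM, above sham control on each day.

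Single nuclei held much of the UMIs behind several of the other large glial ratios. In oligodendrocytes Kcnd2 was at 0.335 (0.267 to 0.417), 0.765 (0.665 to 0.879) and 0.460 (0.382 to 0.551) of sham control, and 1 nucleus held 32.4% of its sham UMIs. Kcnc2 was at 0.352 (0.170 to 0.672, 25% in 1 nucleus) there at day 1, while at day 3 Kcnb2 was at 1.94 (1.37 to 2.80, 33.3% in 1 nucleus) and Kcnt2 at 2.93 (1.81 to 4.93, 33.8% in 1 nucleus). In oligodendrocyte precursors Kcnip1 was at 1.92 (1.44 to 2.58) at day 1 and 1.41 (1.03 to 1.95) at day 7, and Kcnb2 at 2.01 (1.42 to 2.89, 22% in 1 nucleus) at day 3 and 1.63 (1.07 to 2.48) at day 7. Kcnh7 was at 1.53 (1.14 to 2.06, 30.5% in 1 nucleus) at day 1 and Kcnc2 at 2.30 (1.27 to 4.48, 41.1% in 1 nucleus) at day 3 in these precursors. The precursors also held lower values, as Kcnt2 was at 0.564 (0.320 to 0.969, 26.8% in 1 nucleus) at day 1, and not every member kept its side. Kcnh7 was at 1.54 (1.18 to 2.01) at day 3 and 0.555 (0.364 to 0.832, 49.4% in 1 nucleus) at day 7, and Kcnip1 at 0.811 (0.599 to 1.10) at day 3. Kcnd2 was below sham control on each day, at 0.709 (0.647 to 0.777), 0.740 (0.684 to 0.799) and 0.767 (0.698 to 0.843). In microglia Kcnj6 was at 2.66 (1.64 to 4.42, 37.7% in 1 nucleus) and Kcnq1 at 1.87 (1.06 to 3.37, 30.6% in 1 nucleus) at day 1, when Kcnq3 was at 0.552 (0.415 to 0.729, 38.3% in 1 nucleus), and Kcnj3 was at 0.310 (0.196 to 0.481, 25% in 1 nucleus) at day 3.

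**Figure D5:**
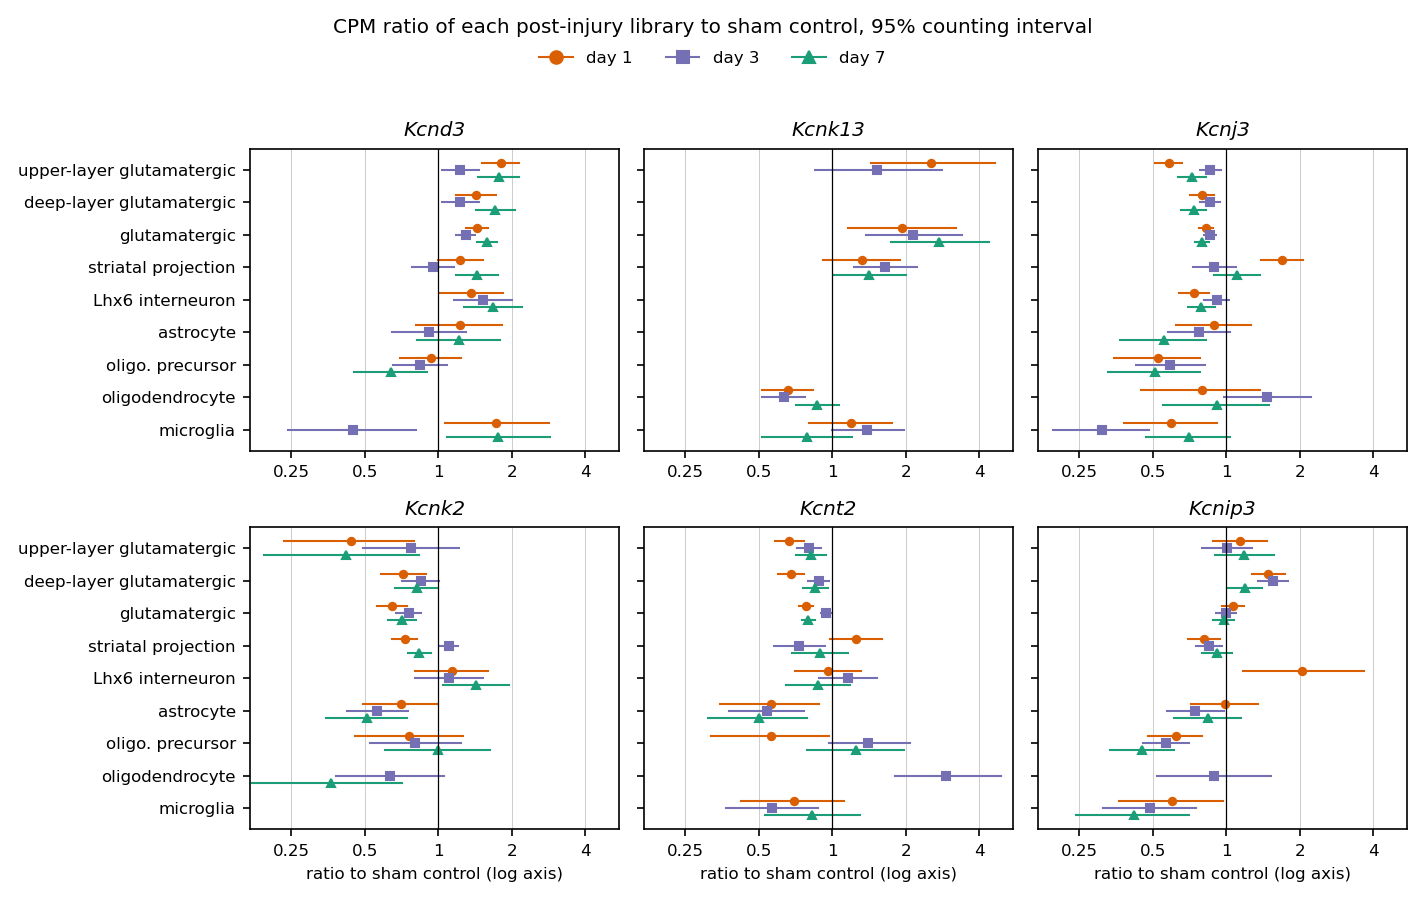
CPM of each later library divided by sham control (log axis) for 6 members in 9 classes, with 95% counting intervals and a line at 1, shown where the pair of sums held at least 50 UMIs. Kcnd3 lies right of the line in the glutamatergic classes and Lhx6 interneurons, Kcnk13 lies right in glutamatergic neurons and left in oligodendrocytes at day 1 and day 3, Kcnj3 lies left in the glutamatergic classes and oligodendrocyte precursors, and Kcnip3 lies right in deep-layer neurons and left in oligodendrocyte precursors.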

How the data were processed

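Libraries were made with a droplet 3′ kit from nuclei of pooled hemispheres. The deposited files hold raw UMI counts per gene and barcode, which the authors obtained by aligning reads to GRCm38 (mm10) with STAR 2.7.3a under GENCODE gene models and counting exonic and intronic reads together. UMIs within 1 mismatch were collapsed and a filter was applied to those assigned to several genes, and the strand setting is not given in the sources used here. All barcodes were deposited, so nuclei were called here.

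Barcodes over 1000 UMIs that lay above the knee of the library's barcode curve or differed from the barcodes of up to 1000 UMIs at a false discovery rate of at most 0.001 with 10000 Monte Carlo draws were kept, which gave 7925 nuclei. As likely doublets, the nuclei with the highest Scrublet scores (scanpy 1.11.5) were removed in a set number, 0.8% for each 1000 nuclei of a library, 145 in all. Free RNA was estimated from barcodes of 100 to 1000 UMIs. Libraries were normalised with sctransform 0.4.2 and integrated in Seurat 5.3.0 with 2972 features, 30 principal components and a resolution of 0.8, without any Kcn gene or the 12 partner genes. The 32 clusters were named from marker lists. UMIs were summed per class and library, and sums of at least 10 nuclei were tested with edgeR 4.0.16 in R 4.3.3, with DESeq2 1.42.0 as an alternative. The intervals were computed in scipy 1.17.1. The calling of nuclei, the class test and the intervals were checked on simulated data. Gene positions came from a GENCODE annotation of GRCm38, to which all 95 members matched.

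Named in each class were the 3 members with the largest fold among those called higher, per class and day the 2 largest ratios up and down with at least 50 UMIs, an interval without 1 and under 50% of the UMIs of the higher sum in 1 nucleus, and 41 fixed members, with the 2 most alike members of 8 of these. A few further ratios were named after their values were seen, to place a named one beside other classes or relatives. Some members are counted but not reported by name here. The members and lists were chosen with earlier results of these data known. Alternatives covered the test, scaling, filters, library term, depth of nuclei, free RNA, clustering, weighting of nuclei and leaving out each library.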

Additional observations from a re-analysis of the deposited data

Results flagged for a closer look

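A pair of members moved in opposite directions in different classes on all 3 days, and the difference between the classes was not tested, since each group is 1 library and the days share the sham control. Kcnip3 was higher than in sham control in deep-layer neurons, where the lowest of the 3 ratios was 1.19 (1.01 to 1.40) and the others were 1.49 and 1.56. It was lower in microglia, at ratios of 0.598, 0.486 and 0.421, and in oligodendrocyte precursors, at 0.621, 0.566 and 0.453. Within microglia 1 nucleus held 35.3% of the sham UMIs of Kcnip3, and within oligodendrocyte precursors 7.0%.

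Kcnip4 was slightly higher in glutamatergic neurons, where the lowest ratio was 1.10 (1.08 to 1.12) and the others were both 1.11. It was lower in the microglia sums, at 0.717, 0.651 and 0.670, where 1 nucleus held 28.2% of the sham UMIs. That direction turned at day 3 with thinned nuclei (log2 ratio 0.31) and with the mean over nuclei (0.11). The sum of the 10 general neuron markers in the same microglia sums was 18057 CPM in sham control and 14390, 9304 and 11771 CPM on the 3 days, with 5 of the 10 lower at day 1 and all 10 at day 3 and day 7, and their part was not tested. Kcnip4 was also lower in oligodendrocyte precursors, at 0.365, 0.780 and 0.378, where 1 nucleus held 58.1%.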

How the results depend on the processing

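Of the 209 calls of a member as higher in a class, 207 were shared with DESeq2, 208 with median-of-ratios scaling, 206 without a filter, 205 without the library term, 209 with free RNA taken off, 180 of the 184 in classes that remained with libraries merged, and 194 to 206 when a library was left out. Without a library, 63 to 67 members were tested. The counts called higher, each with the range of the share over all genes, were 14 to 16 for Adarb2 interneurons (6.02% to 6.44%), 16 to 19 for Lhx6 interneurons (8.75% to 9.22%), 5 to 8 for astrocytes (14% to 16%), 21 to 23 for deep-layer (9.2% to 10%), 19 to 26 for dentate granule (7.33% to 8.82%), 27 to 32 for glutamatergic (10.1% to 10.9%), 22 to 25 for subcortical (9.51% to 9.96%), 26 to 30 for upper-layer (10.2% to 10.8%) and 21 to 23 for striatal neurons (10.8% to 11.8%), 2 to 4 for endothelial cells (21.6% to 23.6%), 5 to 6 for microglia (12% to 14.2%), 8 to 8 for oligodendrocytes (12.3% to 14.5%), 9 to 10 for their precursors (10.1% to 10.4%) and 4 to 4 for leptomeningeal cells (10.3% to 12.5%). The counts called lower were 7 to 13 in astrocytes (2.73% to 5.21%), 33 to 35 in endothelial cells (14.6% to 17.7%), 23 to 29 in oligodendrocytes (10.7% to 13.1%), 6 to 11 in striatal projection neurons (6.46% to 7.87%) and 22 to 32 in leptomeningeal cells (8.85% to 12.1%), with the lowest values of astrocytes and striatal projection neurons without day 3. The Kcnj2 call in endothelial cells was lost without day 7 (adjusted p = 0.0688), and the Kcnj10 call in endothelial cells had an adjusted p between 0.0227 and 0.728 over the alternatives.

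Thinning nuclei to 1000 UMIs, which leaves a part of the counts, lowered most counts and left 115 of the 209 calls. Members called higher fell to 3 in astrocytes, 12 in deep-layer, 10 in dentate granule, 17 in glutamatergic, 13 in striatal and 15 in upper-layer neurons, 2 in microglia and 0 in endothelial and leptomeningeal cells, and members called lower to 19 in endothelial cells, 18 in oligodendrocytes, 5 in striatal projection neurons and 14 in leptomeningeal cells. These counts are of 33 members tested, and among the 4407 genes tested there the shares called higher were 20.9%, 11.7%, 9.19%, 12.2%, 13.8%, 11.5%, 25.4%, 26.2% and 16.1% in the same order, and lower 16.1%, 14.7%, 8.44% and 12.7%. With a limit of 1.5-fold Lhx6 interneurons had 28 of 62 members higher (all genes 15.4%) and astrocytes 22 lower (10.7%). Astrocytes had 7 of 63 members lower with free RNA taken off (5.1%) and 7 of 64 with libraries merged (3.29%), and endothelial cells had 5 of 93 higher without a filter (12.7%). The cause was not tested for these last 3.

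Member and class pairs past 1.5-fold from sham control over the 9 classes numbered 18 of 100, 7 of 129 and 12 of 105 on the 3 days with thinned nuclei (all genes 17.2%, 11.8% and 13.7%), 101 of 391, 91 of 421 and 96 of 395 with at least 20 UMIs (21.7%, 19.2% and 21.7%), and 17 of 296, 15 of 320 and 14 of 288 with a limit of 2-fold (2.68%, 2.3% and 2.72%). Members lower in astrocytes numbered 0 of 6, 0 of 8 and 0 of 5 with thinned nuclei, which few members passed (all genes 11.4%, 7.19% and 11.4%), and 0 of 26, 1 of 31 and 1 of 25 with a limit of 2-fold (2.95%, 1.61% and 3.22%), 5 of 38 at day 1 with at least 20 UMIs (18.1%) and 6 of 29 at day 7 with libraries merged (11.3%). Members lower in microglia numbered 1 of 4, 0 of 6 and 2 of 4 with thinned nuclei (27.4%, 9.66% and 10.2%), 2 of 16, 5 of 18 and 3 of 17 with libraries merged (14.7%, 8.11% and 8.82%), and 8 of 30, 20 of 31 and 11 of 30 with at least 20 UMIs (14.4%, 15.1% and 14%). With the mean over nuclei they numbered 3 of 19 at day 1 (14.9%) and 2 of 18 at day 3 (9.71%), and with a limit of 2-fold 1 of 19 (3.72%) and 7 of 18 (6.18%). Reversed log2 ratios were found with thinned nuclei for Kcnd2 in oligodendrocytes at day 7 (0.059) and in microglia at day 3 for Kcnip4 (0.31) and Kcnma1 (0.28). With the mean over nuclei, day 3 values reversed in microglia for Kcnd3 (0.33), Kcnip4 (0.11), Kcnma1 (0.14) and Kcnt2 (0.70) and in astrocytes for Kcnj6 (-0.041), and with libraries merged for Kcnq5 in microglia (0.050). The cause of the reversals was not tested. Of the 649 ratios followed, 269 had enough UMIs after thinning, where 126 moved by less than their interval, 140 by more and 3 reversed, and those without enough under an alternative gave no value there.

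No paired analysis was possible because each group is 1 library. The depth limits the glial sums most, where 18 to 31 members had at least 50 UMIs in a comparison, against 35 to 58 in neuronal classes.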
